A study of Mus musculus with 8 samples.

Results

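Mouse genes that encode islet hormones and proteins of the secretory granule were followed in pancreas buds at E11.0, the stage at which the first hormone cells are present in the budding gland. The 10 members are the hormone genes Gcg, Ins1, Ins2, Iapp, Ghrl, Sst and Pyy, the chromogranin genes Chga and Chgb, and the prohormone convertase gene Pcsk2. They were taken by gene symbol, and all 10 were found among the 24341 genes of the expression table. All 10 passed a filter of a mean of at least 0.5 FPKM, a level scaled to transcript length and to the mapped fragments of the library, which 13777 genes passed.

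Total RNA was sequenced from 5 WT buds and 3 buds of the genotype Pdx1Creearly;Lats1f/f;Lats2f/f, named Lats1/2PanKO here and Lats1/2-null in the labels, all at E11.0 and labelled as strain CD1. Each library came from an individual bud from which mesenchyme had been peeled off by hand. LATS1 and LATS2 are the kinases of the Hippo pathway that keep the coactivators YAP1 and TAZ out of the nucleus, and the Cre used here is driven by a Pdx1 promoter and acts in the pancreatic epithelium, so other cells left on the bud kept both genes. The WT label names no Cre allele, and the transgene and the deletion cannot be told apart. The comparison asks how endocrine transcripts stood in the bud soon after Lats1/2 were deleted.

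Islet hormones are made as prohormones, cut by the convertases PCSK1 and PCSK2, and stored in dense-core granules that chromogranins help to form. NEUROG3 starts the endocrine programme in a small part of the epithelium, and NEUROD1, PAX6 and ISL1 act after it. The first endocrine cells of the mouse bud are mostly glucagon cells, and the main wave of beta cells comes later in gestation.

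Promoter sequences are shown for Gcg, Ins1 and Ghrl, the members with the highest fitted changes. Each is the 250 bases before the RefSeq start (GRCm38.p6), read 5′ to 3′ on the gene's own strand. Capitals mark TATAAA, the E box CAGATG, which NEUROD1 and NEUROG3 can bind, and GGAATG, the letters of the TEAD site, where YAP1 and TAZ act through TEAD factors, each on either strand.
Gcg (chr2:62483654-62483903, minus strand): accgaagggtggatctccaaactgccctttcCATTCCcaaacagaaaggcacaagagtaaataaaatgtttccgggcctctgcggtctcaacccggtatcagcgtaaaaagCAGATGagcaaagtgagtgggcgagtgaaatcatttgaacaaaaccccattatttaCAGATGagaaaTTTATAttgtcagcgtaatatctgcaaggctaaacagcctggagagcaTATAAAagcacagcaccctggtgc
Ins1 (chr19:52264047-52264296, plus strand): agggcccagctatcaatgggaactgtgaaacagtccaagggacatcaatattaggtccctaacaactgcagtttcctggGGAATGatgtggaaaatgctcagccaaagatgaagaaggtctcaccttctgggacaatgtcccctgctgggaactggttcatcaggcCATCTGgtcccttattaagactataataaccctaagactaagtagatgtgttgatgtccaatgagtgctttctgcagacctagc
Ghrl (chr6:113719912-113720161, minus strand): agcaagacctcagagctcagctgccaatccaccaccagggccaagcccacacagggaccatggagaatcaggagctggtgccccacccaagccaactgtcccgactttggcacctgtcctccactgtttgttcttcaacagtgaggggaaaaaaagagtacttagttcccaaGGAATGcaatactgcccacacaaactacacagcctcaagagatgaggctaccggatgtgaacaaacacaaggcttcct
In the Gcg window GGAATG begins 219 bases before the start on the reverse strand, CAGATG begins 139 and 83 bases before it, and TATAAA begins 72 bases before it on the reverse strand and 24 bases before it on the gene's strand. In the Ins1 window GGAATG begins 171 bases and CAGATG, on the reverse strand, 84 bases before the start. In the Ghrl window only GGAATG was found, 78 bases before the start.

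RefSeq windows were matched for 9 of the 10 members, all but Ins2. Of these 9, GGAATG was found in 3 (Gcg, Ins1 and Ghrl), against 12.6% of 32841 promoter windows of the same length. CAGATG was found in 3 (Gcg, Ins1 and Iapp), against 14.4% of all windows, and TATAAA in Gcg alone, against 12.4%. The homeodomain core TAAT was found in 5, against 54.9%. None of its matches overlaps another motif here, and those 74 and 72 bases before the Iapp start overlap each other. The cyclic AMP response element TGACGTCA was found in Sst, 48 bases before the start, and in Chgb, 72 bases before it, against 1.55% of all windows. These are matches of letters, and the files hold no measurement of binding.

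The labels were checked first on the deleted genes. In the 5 WT buds Lats1 averaged 15.6 ± 0.905 FPKM (SD), against 12.1 ± 1.87 FPKM in the 3 mutant buds, with no overlap (exact two-sided permutation p = 0.0179, the smallest that 56 arrangements can give). Of the 13777 tested genes, 421 were lower without overlap. Lats2 was 13.8 ± 1.26 and 12.3 ± 1.15 FPKM, and its ranges overlapped. By limma the adjusted p was 0.269 for Lats1 and 0.589 for Lats2. A whole-gene FPKM also holds RNA of cells without the Cre. Lats1/2PanKO replicate 3 stood apart: it had the highest value of the 8 libraries for 20.5% of the tested genes, against 6.23% and 7.55% for replicates 1 and 2, while WT replicate 5 had it for 22.4%. In bulk buds, a difference in the number of cells of a type cannot be told apart from a difference in RNA per cell.

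Every one of the 10 genes had a higher mean in Lats1/2PanKO than in WT buds on the log2(FPKM + 1) scale, as 46.9% of all tested genes did, and none passed the test across all genes. The median log2 fold change of the members was 0.51, against -0.01 over all tested genes. By limma with Benjamini-Hochberg adjustment, 0 of 10 members had an adjusted p under 0.05, which was reached by 2 genes in the whole table, or 0.0145%. At an unadjusted p under 0.05 there were 4 members (Ghrl, Gcg, Ins1 and Chga), all higher in the mutant, where 6.29% of all genes were. In 6 of 10 members the ratio of mean FPKM was at least 1.5, against 6.74% of all genes. Without Lats1/2PanKO replicate 3 this held for Gcg (1.501), Ins1 (2.07) and Ghrl (1.75) but not for Chga (1.28), Iapp (1.04) or Sst (0.913). The share of all genes is not given for that setting. Lats1/2PanKO replicate 3 held the highest value for 10 of 10 members, and without it the median log2 fold change of the members was 0.14, with 9 higher, against 47.2% of all genes, and Chgb lower. Without that bud 2 members, Gcg and Ghrl, had an unadjusted p under 0.05, both higher, against 3.69% of all genes.

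**Figure D1:**
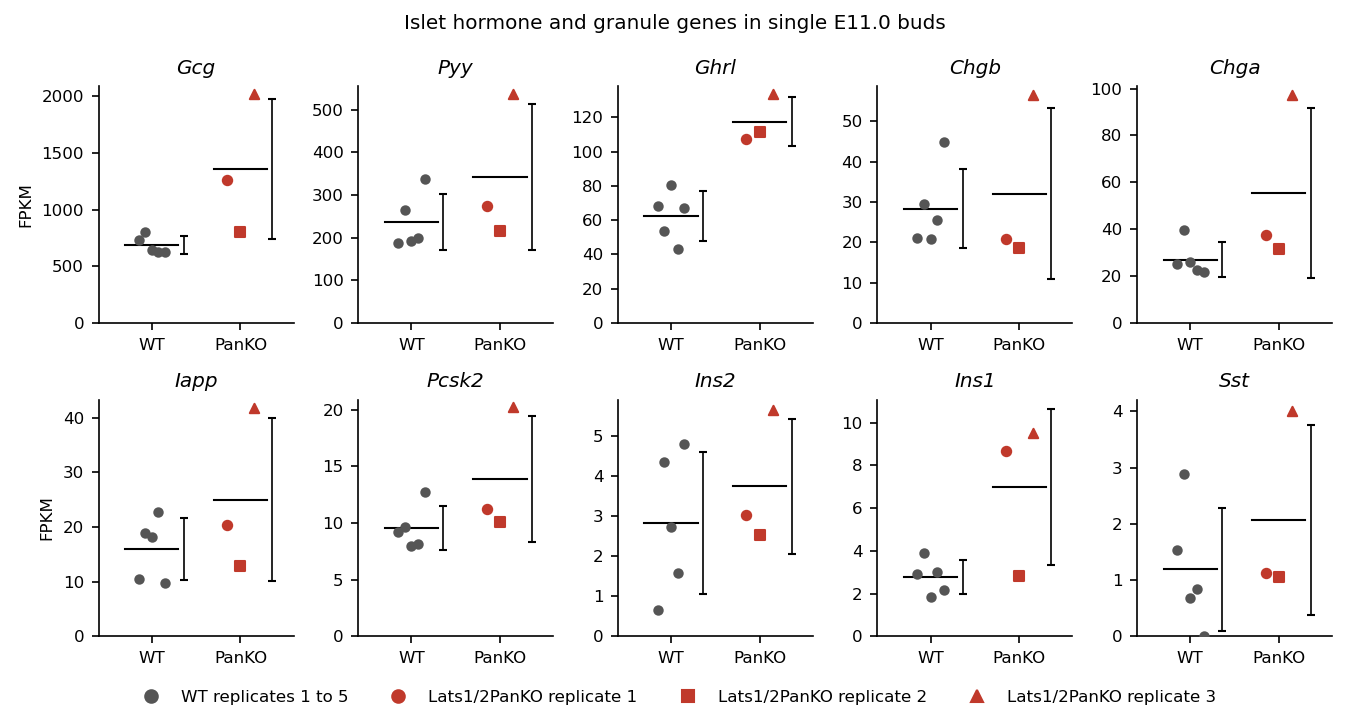
FPKM of each of the 10 genes in each bud, in order of WT mean; grey circles are the 5 WT buds, red symbols the 3 Lats1/2PanKO buds, horizontal lines the means and vertical bars the SD. Only Ghrl has all mutant buds above all WT buds, and the red triangle, replicate 3, is the highest point in every panel.

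Glucagon was the most abundant hormone transcript in every bud. Gcg, which encodes the glucagon precursor, was at 729, 806, 647, 622 and 626 FPKM in WT replicates 1 to 5, and at 1259.9, 799.6 and 2019 FPKM in Lats1/2PanKO replicates 1 to 3. Replicates 1 and 3 of the mutant were above every WT bud, and replicate 2 fell just below the highest of them, so that the groups overlapped by a single library. The WT mean was 686 ± 79.7 FPKM (SD, n = 5), and the mutant mean 1359 ± 616 FPKM (SD, n = 3), a ratio of 1.98, which was 1.501 without replicate 3. The log2 fold change was 0.89 ± 0.25 (SE), with an adjusted p of 0.267 by limma, and it was 0.56 without replicate 3.

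Ghrelin was the gene whose groups stood clear of each other. Ghrl encodes the precursor of ghrelin, the product of the epsilon cells of the fetal islet and of stomach endocrine cells. It was at 68.2, 53.6, 80.8, 42.9 and 66.9 FPKM in the WT buds and at 107, 111 and 134 FPKM in the mutant buds. All 3 mutant buds were above all 5 WT buds, and they lay close together. The means were 62.5 ± 14.5 FPKM (SD, n = 5) and 117 ± 14.3 FPKM (SD, n = 3), a ratio of 1.88 that was 1.75 without Lats1/2PanKO replicate 3. The log2 fold change was 0.93 ± 0.18 (SE), with an exact two-sided permutation p of 0.0179 and an adjusted p of 0.140 by limma. Ghrl was the 1 member of 10 higher without overlap, and 4.46% of all tested genes were.

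Insulin transcripts were scarce at this stage. Ins1, a rodent insulin gene with a single intron, was at 2.91, 3.88, 1.85, 3.03 and 2.16 FPKM in WT buds and at 8.66, 2.81 and 9.50 FPKM in mutant buds. Mutant replicates 1 and 3 were above every WT bud, while replicate 2 lay inside the WT range. The Ins1 log2 fold change of 0.98 ± 0.33 (SE) was the highest of the members, with an adjusted p of 0.326 by limma.

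Ins2, the insulin gene that other mammals share, was at 0.671, 4.35, 2.73, 1.58 and 4.81 FPKM in WT and at 3.03, 2.53 and 5.66 FPKM in mutant buds. Replicates 1 and 2 of the mutant lay inside the wide WT range, and replicate 3 was above it (log2 fold change 0.40 ± 0.41, adjusted p = 0.771 by limma, and 0.12 without replicate 3). The sum of both genes was 3.58 to 8.23 FPKM in WT and 5.34 to 15.2 FPKM in Lats1/2PanKO buds, and Ins1 made up 31.0% to 81.3% and 52.5% to 74.1% of it.

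These levels rest on few fragments. From the steps of low values in the table, and from the length of the first GENCODE transcript of each gene, Ins2 stood on about 3 to 20 fragments in a WT bud and 12 to 27 in a mutant bud, and Ins1 on about 17 to 39 and 30 to 100. Gcg stood on about 5143 to 8347 and 8832 to 21746. The transcripts Ins1-201 and Ins2-201 are 91.2% identical over 456 aligned columns, but they share no run as long as the 75-base read, the longest being 56 bases.

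Peptide YY was the hormone transcript next in abundance to Gcg. Pyy, which encodes a gut hormone also made by early islet cells, was at 187, 265, 192, 199 and 338 FPKM in WT and at 274, 217 and 538 FPKM in mutant buds. Mutant replicates 1 and 2 lay inside the WT range, and replicate 3 was above it. The log2 fold change was 0.46 ± 0.30 (SE), with an adjusted p of 0.611 by limma, and the ratio of means of 1.45 was 1.04 without replicate 3.

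Amylin and somatostatin transcripts were highest in the same mutant bud. Iapp, which encodes the amylin that beta cells store with insulin, ranged from 9.80 to 22.8 FPKM with a median of 18.2 in WT, and was at 20.3, 13.0 and 41.7 FPKM in mutant buds. Its locus in the table spans 88755 bases and also holds Slco1a5, while the RefSeq gene spans 5396 bases. Sst, the somatostatin gene of the delta cells, was at 1.54, 2.89, 0.679, 0.842 and 0 FPKM in WT and at 1.123, 1.05 and 4.01 FPKM in mutant buds, on about 0 to 20 and 8 to 29 fragments. For both genes only mutant replicate 3 was above the WT range, and the log2 fold changes of 0.53 ± 0.38 and 0.50 ± 0.45 (SE) had adjusted p of 0.656 and 0.738 by limma. Without replicate 3 they were 0.09 and 0.07, and the ratio of means of Sst was 0.913.

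The chromogranin genes gave different values. Chga, which encodes chromogranin A, was at 25.02, 39.8, 26.1, 22.5 and 21.8 FPKM in WT and at 37.3, 31.7 and 97.2 FPKM in mutant buds. WT replicate 2 was above mutant replicates 1 and 2, and replicate 3 was far above all others. The Chga log2 fold change was 0.86 ± 0.34 (SE), with an adjusted p of 0.393 by limma, and it was 0.37 without mutant replicate 3, where its unadjusted p was no longer under 0.05. Chgb, which encodes chromogranin B, was at 21.1, 29.5, 20.9, 25.6 and 44.8 FPKM in WT and at 20.9, 18.6 and 56.5 FPKM in mutant buds. Mutant replicates 1 and 2 were at or below the low end of the WT range, and replicate 3 alone was above it. The Chgb log2 fold change was 0.05 ± 0.36 (SE, adjusted p = 0.973 by limma), and it was -0.44 without replicate 3. The difference between the changes of the 2 granins was not tested.

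Pcsk2, which encodes the convertase that cuts proglucagon to glucagon, was at 9.21, 9.67, 7.99, 8.12 and 12.8 FPKM in WT and at 11.3, 10.1 and 20.3 FPKM in mutant buds. Mutant replicates 1 and 2 were above every WT bud but WT replicate 5, and mutant replicate 3 was above all of them. The log2 fold change was 0.45 ± 0.22 (SE), with an adjusted p of 0.503 by limma, and it was 0.16 without replicate 3.

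**Figure D2:**
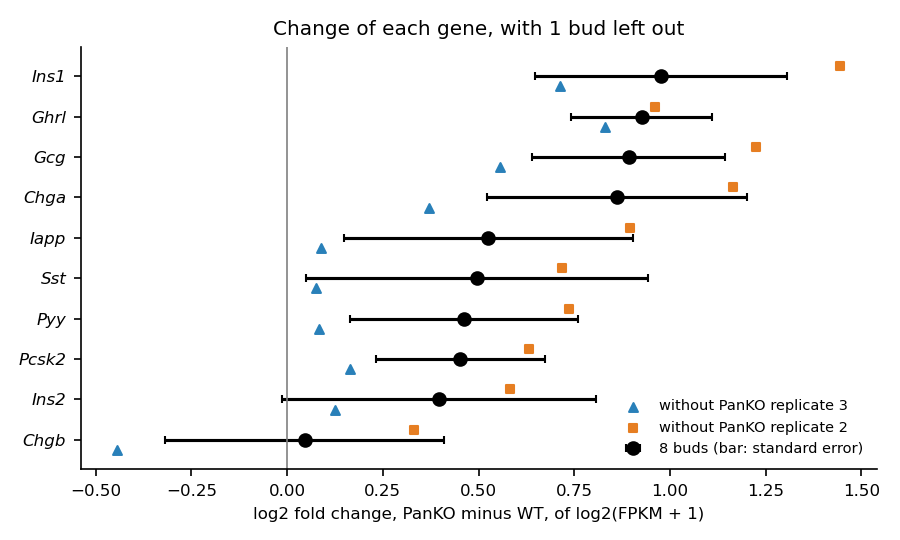
Log2 fold change of each gene on log2(FPKM + 1), Lats1/2PanKO minus WT; black points use all 8 buds with the SE as a bar, blue triangles leave out Lats1/2PanKO replicate 3 and orange squares leave out replicate 2. Ghrl moves least among the 3 estimates (0.93, 0.83 and 0.96), and Chgb falls below 0 without replicate 3 (-0.44).

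The order of the levels, compared on the per-length FPKM scale, was led by Gcg, Pyy and Ghrl in all 8 buds. In WT buds the range of Gcg did not overlap that of Pyy, nor that of Pyy with Ghrl. Below them came Chgb, Chga, Iapp and Pcsk2 by WT mean, whose neighbours overlapped in range, and Chgb was above Chga in 2 of 5 WT buds and in 0 of 3 mutant buds. Pcsk2 did not overlap with Ins2 in range, whereas Ins2, Ins1 and Sst overlapped in range. Within each bud, Ins1 was above Sst in 5 of 5 WT and 3 of 3 mutant buds, and Ins2 was above Ins1 in 3 of 5 WT buds and in 0 of 3 mutant buds.

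The make-up of the hormone transcripts overlapped between genotypes. Gcg made up 59.8% to 72.9% of the summed FPKM of the 7 hormones in WT and 69.7% to 75.3% in Lats1/2PanKO buds (exact two-sided permutation p = 0.161). Pyy made up 18.7% to 32.2% and 16.3% to 19.5% (exact permutation p = 0.179), and Ghrl 4.65% to 8.57% and 4.86% to 9.72% (exact permutation p = 0.661). The ratio of Gcg to the sum of Ins1 and Ins2 was 89.9 to 204 in WT and 108 to 150 in mutant buds. All of these ranges overlapped, while the sum itself was 892 to 1154 FPKM in WT and 1147 to 2751 FPKM in mutant buds.

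**Figure D3:**
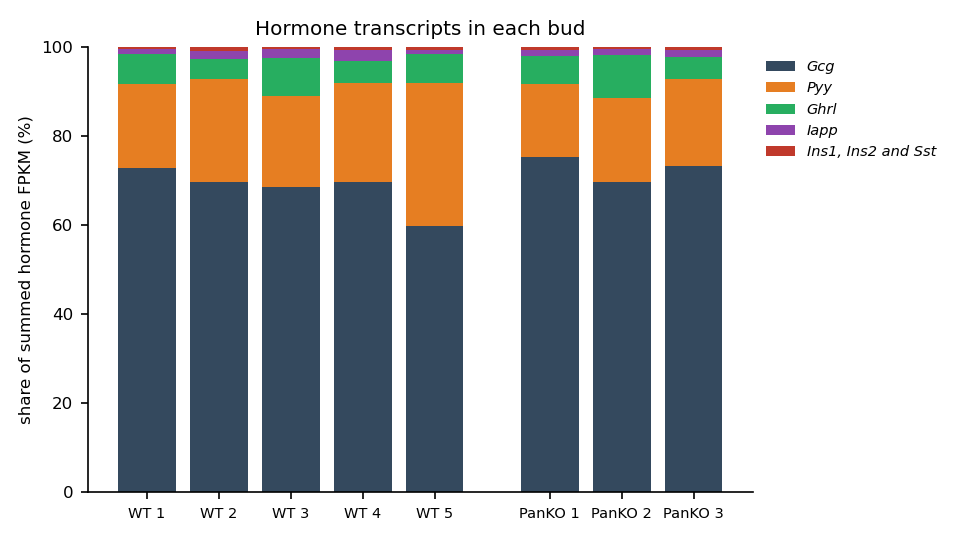
Share of the summed FPKM of 7 hormone genes taken by each, in percent, for each of the 5 WT and 3 Lats1/2PanKO buds. Gcg takes 59.8% to 75.3% of the sum in every bud, and WT replicate 5 has the largest share of Pyy, 32.2%.

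How far the members were high and low together depended on Lats1/2PanKO replicate 3. Across the 8 buds, 45 of the 45 pairs of members had a positive Pearson correlation of log2(FPKM + 1), from 0.12 to 0.96 with a median of 0.65. Without that bud 32 of 45 were positive, from -0.50 to 0.93 with a median of 0.29. Of all pairs of tested genes 50.0% were positive in either case, and all points share the depth and genotype of their library. The genes most like Gcg by this measure were Cgn, which encodes the tight junction protein cingulin (r = 0.996 over 8 libraries, 0.986 over the 7 without Lats1/2PanKO replicate 3), Evpl, which encodes envoplakin (0.993 and 0.986), and the kinase gene Pak7 (0.992 and 0.978). Cgn was at 4.46 to 7.24 FPKM in WT and 7.68 to 25.2 FPKM in mutant buds. The genes most like the mean of the members were Tdrd5 (0.991 and 0.962), Stard13 (0.980 and 0.917) and Rbp4, the retinol-binding protein gene (0.978 and 0.889).

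The transcription factors that act in the endocrine lineage were higher on average for 13 of 16 genes, with a median log2 fold change of 0.61. None passed the adjusted test, and 9 had an unadjusted p under 0.05, of which 8 were higher and Isl1 was lower, against 11.3% of all genes. Neurog3, the factor that starts the lineage, was at 1.73 to 3.37 FPKM in WT and 2.82 to 6.21 FPKM in mutant buds (log2 fold change 0.65 ± 0.23, adjusted p = 0.335 by limma). Its target Neurod1 was at 3.62 to 7.16 and 6.80 to 19.1 FPKM. Both overlapped between genotypes by mutant replicate 2.

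Only 2 of the 16 factors were higher without overlap, against 4.46% of all genes. Pax6, which acts on hormone promoters, was at 3.37 to 5.81 and 4.90 to 11.1 FPKM and overlapped. The 2 without overlap were Irx1 and Insm1, which with Neurod1 had the smallest p of the list. Irx1 was at 18.5, 13.1 and 26.3 FPKM, the lowest of these just above the WT maximum of 12.9 FPKM. Insm1 was at 6.08, 5.09 and 7.33 FPKM against a WT maximum of 4.19 FPKM. Isl1, which is also expressed in the mesenchyme around the bud, was at 68.2 to 85.1 FPKM in WT and 52.7 to 68.4 FPKM in mutant buds (log2 fold change -0.27 ± 0.10 SE, adjusted p = 0.372 by limma). Without Lats1/2PanKO replicate 3 the median of the 16 factors was 0.30, and 2 had an unadjusted p under 0.05, both higher, against 5.89% of all genes.

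Other granule and processing genes were higher on average for 21 of the 21 tested out of 24 listed, with a median log2 fold change of 0.34. None passed the adjusted test, and 9 had an unadjusted p under 0.05, all higher, against 6.29% of all genes. The 3 with the smallest p also did not overlap, against 4.46% of all genes. Scg2, the secretogranin II gene, was at 3.85, 3.03 and 4.27 FPKM in mutant buds against a WT range of 1.24 to 2.26 FPKM. Scg3, whose product binds chromogranin A, was at 20.2, 13.7 and 33.5 FPKM against 8.43 to 13.3 FPKM. Ptprn2, which encodes a membrane protein of the granule, was at 19.99, 14.9 and 34.5 FPKM against 10.2 to 14.3 FPKM. Without Lats1/2PanKO replicate 3 the median was 0.18, and 3 genes had an unadjusted p under 0.05, all higher, against 3.69% of all genes.

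Of 12 other peptide hormone genes 7 were tested, 6 of them higher on average, and Vip and Ucn3 were listed at 0 in all 8 libraries. Gal, the galanin gene, was at 4.76, 4.63 and 6.56 FPKM in mutant buds against 1.66 to 3.27 FPKM in WT, with no overlap (log2 fold change 0.85 ± 0.19, adjusted p = 0.178 by limma). Cck, the cholecystokinin gene, was at 25.7, 17.8 and 38.0 FPKM against 7.84 to 18.4 FPKM, and Gast, the gastrin gene, at 4.98, 5.63 and 7.45 FPKM against 0.990 to 6.05 FPKM.

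**Figure D4:**
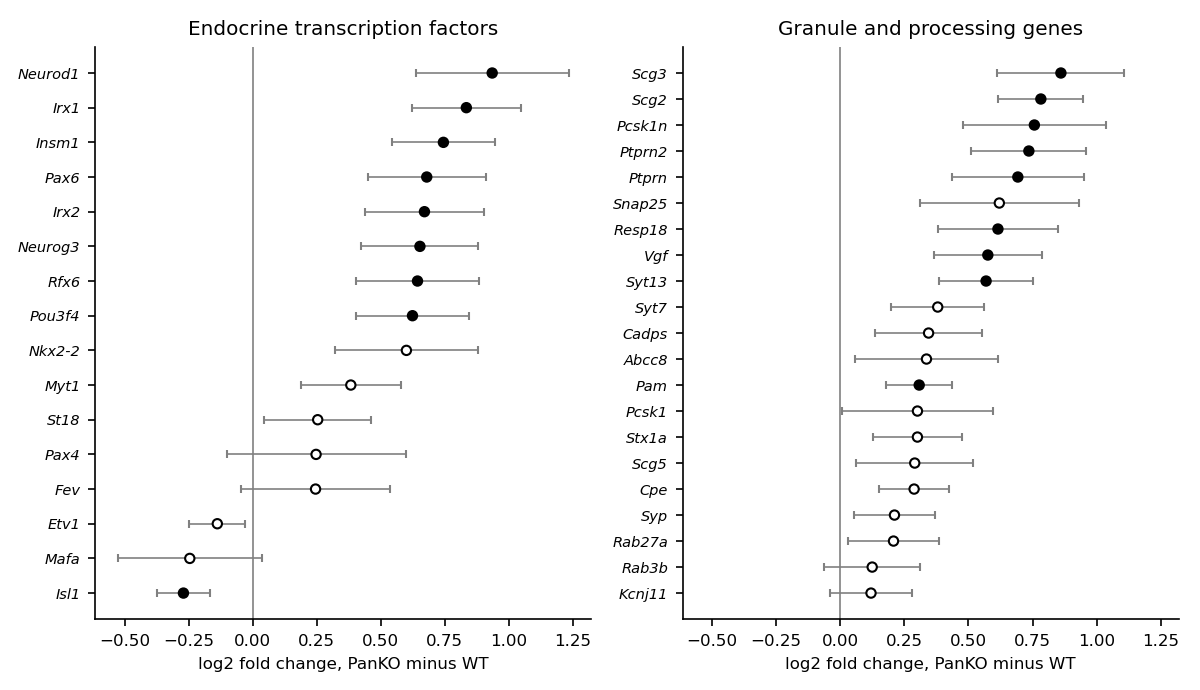
Log2 fold change of log2(FPKM + 1), Lats1/2PanKO minus WT, with the SE as a bar, for 16 endocrine transcription factors and the 21 tested granule and processing genes; filled points have an unadjusted limma p under 0.05. Points to the right of 0 are higher in the mutant: 13 of the 16 factors and 21 of the 21 granule genes.

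Markers of the epithelium were higher as well. All 14 markers, among them Epcam and Cdh1, had a higher mean in the mutant, and their median log2 fold change was 1.07. Of these, 13 had an unadjusted p under 0.05, all higher, against 6.29% of all genes. In 12 the groups did not overlap, against 4.46% of all genes, and replicate 3 was the highest bud for 13, against 20.5%. Their summed level was 225 to 292 FPKM in WT and 438 to 1063 FPKM in mutant buds. Krt19, Cldn6 and Grhl2 had the smallest p, and Krt19 was at 13.4, 15.3 and 47.0 FPKM against 2.13 to 4.05 FPKM. Progenitor genes were higher for 8 of 9, and in 4 the groups did not overlap, against 4.46% of all genes. The 3 of smallest p were Sox9, at 64.4, 48.3 and 110 FPKM against 25.6 to 33.6 FPKM, Nkx6-1, at 21.9, 22.2 and 51.2 FPKM against 7.74 to 13.6 FPKM, and Onecut1, at 44.6, 28.6 and 96.2 FPKM against 12.0 to 18.4 FPKM. Pdx1, Prox1, Mnx1 and Cpa1 overlapped, with ratios of means of 1.10, 1.29, 1.04 and 0.957 without Lats1/2PanKO replicate 3, and Ptf1a was lower. Without Lats1/2PanKO replicate 3 the median of the 14 epithelial markers was 0.67, and 12 still had an unadjusted p under 0.05, all higher, against 3.69% of all genes. The members' median was then 0.14, with 2 of 10 at that threshold. The part of these genes in the members' values was not tested.

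Markers of the other cells of a dissected bud went in several directions. Mesenchymal markers were lower for 9 of 11, with summed levels of 645 to 854 FPKM in WT and 725 to 743 FPKM in mutant buds. Vim, 1 of the 2 that were higher, made up most of these sums, at 361 to 481 and 464 to 602 FPKM. The study found VIM protein in the mutant epithelium at a later stage, so the sum does not follow mesenchyme alone. Pdgfra, at 35.0, 31.8 and 19.9 FPKM in the mutant, was lower than its WT minimum of 35.5 FPKM. Endothelial markers were lower for 8 of 8, with sums of 120 to 187 and 82.7 to 132 FPKM. Red blood cell markers summed to 1903 to 11045 FPKM in WT and 5564 to 6877 FPKM in mutant buds. Neuron and neural crest markers, which mark cells that also use chromogranins, summed to 120 to 181 FPKM in WT and 135 to 158 FPKM in mutant buds. Hand2 alone made up most of this sum, at 89.8 to 149 and 84.6 to 127 FPKM, so it says little of the other markers. Of the 14 tested, 8 were higher, and 1 (Sox10) had an unadjusted p under 0.05, against 11.3% of all genes. Replicate 3 was the highest bud for 7 of them, against 20.5% of all genes.

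The gut, liver and leukocyte lists completed the check. Stomach and duodenum markers summed to 181 to 507 FPKM in WT and 125 to 308 FPKM in mutant buds, with 3 of 6 higher. Nearly all of this sum was 1 gene, Barx1, at 173 to 500 and 115 to 302 FPKM. Liver markers were higher for 8 of 8, all with replicate 3 as the highest bud, against 20.5% of all genes. They summed to 113 to 196 and 161 to 461 FPKM, most of it from Ttr, at 83.1 to 142 and 107 to 318 FPKM. Only 2 of the 8 were higher without overlap, against 4.46% of all genes. Without replicate 3 the ratio of means was 0.640 for Alb and 0.901 for Apoa2, and 1.02 to 1.61 for the others. The study lists Afp as a known TEAD target, so the list does not follow liver cells alone. Leukocyte markers summed to 7.67 to 14.7 and 12.5 to 20.1 FPKM. No marker of these lists was at 0 in all libraries, and their part in the members' values was not tested.

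Levels were also set against the epithelial markers, whose own rise in the mutant fixed the direction for the members. This ratio, the log2 level of a gene minus the mean log2 level of the 14 markers in the same bud, was chosen after seeing the data. For Gcg it was 5.90 ± 0.111 (SD, n = 5) in WT and 5.66 ± 0.177 (SD, n = 3) in mutant buds, and the groups overlapped (exact permutation p = 0.0714). For Ghrl it was 2.44 ± 0.449 and 2.23 ± 0.491 (exact permutation p = 0.589), and the groups overlapped. For Ins1 it was -1.62 ± 0.178 and -1.78 ± 0.542 (exact permutation p = 0.482).

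All 10 members were lower on average by this ratio. The base fixed this direction, as its mean rose by more than 0.98, the highest fitted change of a member (Ins1). The mean log2 level of the 14 markers was 3.34 to 3.72 in WT and 4.13 to 5.37 in mutant buds. Of the members, 3 were lower without overlap: Pyy, from 4.34 ± 0.357 to 3.67 ± 0.0366 (exact permutation p = 0.0357), Chgb, from 1.31 ± 0.431 to 0.217 ± 0.239, and Pcsk2, from -0.130 ± 0.268 to -0.815 ± 0.149 (exact permutation p = 0.0179 for Chgb and for Pcsk2). Because the markers themselves were higher in the mutant, 88.0% of all tested genes were lower without overlap by this ratio, and the members' count of 3 in 10 was below that background. With Epcam alone as the base the same count was 3, and the FPKM of Gcg was 15.8 to 19.9 times that of Epcam in WT and 14.3 to 19.7 times in Lats1/2PanKO buds.

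**Figure D5:**
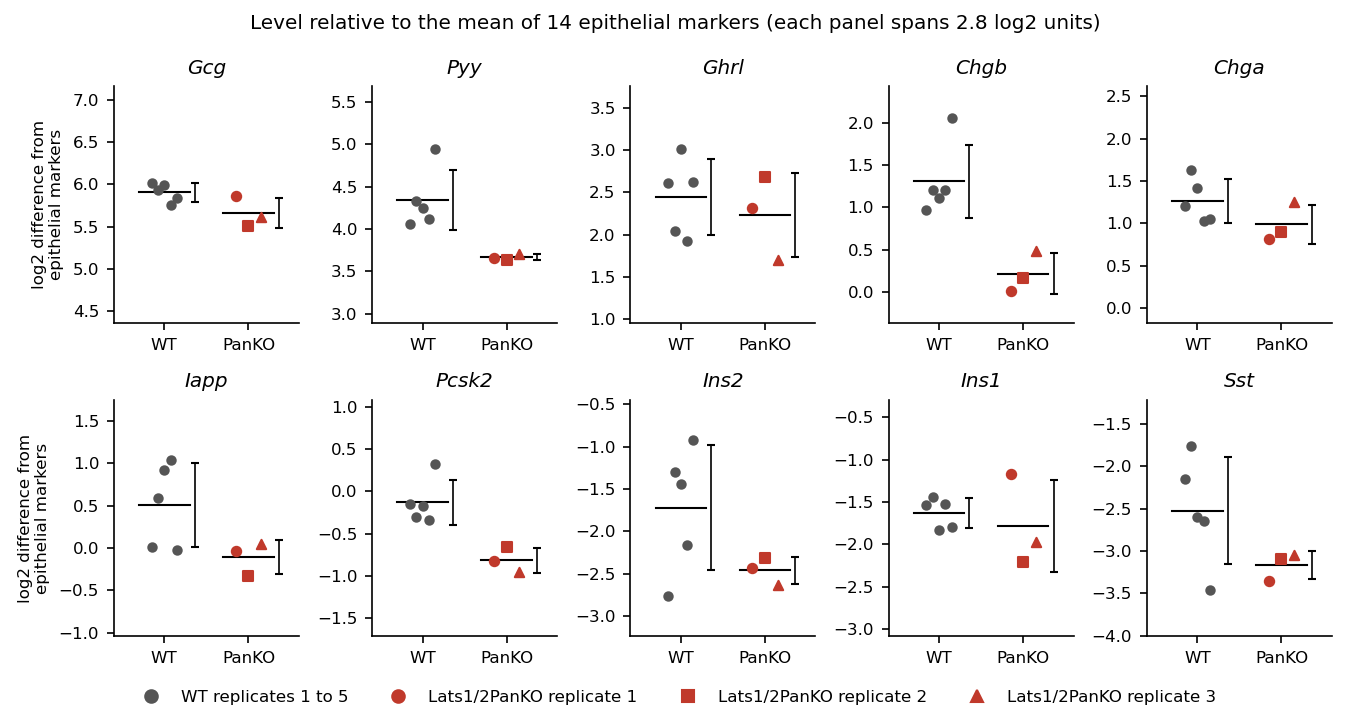
Log2 level of each gene minus the mean log2 level of 14 epithelial markers in the same bud; symbols, lines and bars (mean and SD) are as in the plot of FPKM by bud, and every panel spans the same height. Pyy, Chgb and Pcsk2 have all 3 mutant buds below all 5 WT buds, and the other panels overlap.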

How the data were processed

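Total RNA of individual E11.0 pancreas buds (5 WT, 3 Lats1/2PanKO) was sequenced as stranded paired reads of 75 bases. Per the labels and the study's methods, the authors trimmed reads with cutadapt 1.12, aligned them with TopHat 2.1.0 to GRCm38 (mm10), and deposited one FPKM value per gene and library from Cuffdiff 2.2.1. The methods mention quantile normalization, but each deposited column has its own distribution. The methods give an approximate number of reads per sample, but the FPKM table holds no mapped totals or counts per library, so no counting interval is given. As an estimate of relative depth, the steps of low values put 1 fragment at 1000 bases at 0.0985 to 0.106 FPKM in 7 libraries and at 0.1325 FPKM in WT replicate 5.

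WT and Lats1/2PanKO buds were compared by limma 3.58.1 (R 4.3.3, trended prior) on log2(FPKM + 1) for the 13777 genes whose mean reached 0.5 FPKM. Benjamini-Hochberg adjustment ran over all of them, with a threshold of 0.05. Fold changes on this scale understate those of low genes. Single values were compared with exact two-sided permutation tests over 56 arrangements of the buds. P-values measure the spread between these buds. The script was tested on simulated data.

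The members and the gene lists were chosen with earlier results of these data known. Genes named were the members, Lats1 and Lats2, for each list the 3 tested genes of lowest p (not all are described), 4 endocrine factors, and the 3 genes most correlated with Gcg and with the members' mean. Epcam, Cdh1, Vip, Ucn3, Vim, Hand2, Pdx1, Prox1, Mnx1, Cpa1, Ptf1a, Alb and Apoa2 were named outside this rule. Part of the list of endocrine factors is not reported here. Table starts were raised by 1 to count from 1, after comparison with RefSeq starts. Promoters came from RefSeq (GRCm38.p6). Alternatives were a pseudocount of 0.1, other filters, scalings and weights, a replicate block, and each bud left out.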

Additional observations from a re-analysis of the deposited data

Results flagged for a closer look

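Among 27 groups of 5 WT buds tested for a value far from the rest, 3 were flagged, and chance flags about 1 group in 20. Chga in WT replicate 2 was at 39.8 FPKM, with the nearest WT bud at 26.1 FPKM. Relative to the epithelial markers, Chgb in WT replicate 5 was at 2.06 on the log2 scale, with the nearest WT bud at 1.21. On the same scale Pcsk2 in WT replicate 5 was at 0.326, with the nearest at -0.151. WT replicate 5 also had the highest WT FPKM of Pyy (338), and it is the bud in which 1 fragment was worth most FPKM. The part of depth in these values was not tested.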

How the results depend on the processing

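The FPKM table holds no counts, and there were 3 mutant buds. No member had an adjusted p under 0.05 in any alternative but array weights, where Ghrl alone did (0.0392). Genes called in the whole table were 2, and 18 with a pseudocount of 0.1, 174 with array weights, 1 without the mean-variance trend, 1 with the replicate block and 0 to 19 with a bud left out (19 without Lats1/2PanKO replicate 3). The median log2 fold change of the members was 0.51, and 0.74 with a pseudocount of 0.1 and 0.14 to 0.82 with a bud left out (0.14 without Lats1/2PanKO replicate 3, 0.82 without replicate 2). Members at an unadjusted p under 0.05 were 4, and 1 (Ghrl) with the replicate block and 2 to 7 with a bud left out (2 without Lats1/2PanKO replicate 3, 7 without replicate 2). Endocrine factors were 9, and 6 with the replicate block and 2 to 12 with a bud left out (2 without Lats1/2PanKO replicate 3). Granule and processing genes were 9, and 7 with the block and 3 to 11 with a bud left out (5 without WT replicate 4, 3 without Lats1/2PanKO replicate 3). By limma, 11.3% of all tested genes had an unadjusted p under 0.05, and 5.89% did without Lats1/2PanKO replicate 3. That share is not given for the other settings, so the list counts under them cannot be set against all genes. No member was called by adjusted p with or without the block, so the block could take no call away. Same-numbered WT and mutant buds did not deviate together (r = 0.085, -0.097 and 0.069), so the numbers were not used as pairs. Chgb turned to -0.14 with array weights and ranged from -0.44 to 0.33 with a bud left out, being -0.04 and -0.05 when WT replicates 1 and 3 were left out and -0.44 when mutant replicate 3 was, and Sst turned to -0.0093 with array weights. Members lower relative to the epithelial markers without overlap were 3, where 88.0% of all tested genes were, and 3 to 5 with a bud left out (5 without Lats1/2PanKO replicate 1 or 3). In all, 154 of 159 values for single members kept their direction. Those under the other filters and without the mean-variance trend could not turn, as these settings leave each fold change as it was. The causes were not tested.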
